A study of Mus musculus with 8 samples.

Results

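Syk and 8 further genes of myeloid immunoreceptor signalling, Lyn, Fgr, Btk, Plcg2, Inpp5d, Blnk, Lcp2 and Tyrobp, were followed as chromatin loci in AML246, cultured mouse cells of acute myeloid leukaemia. ATAC-seq, whose transposase inserts adapters into open DNA, had been run on the cells, and its peak summits were deposited as lists. The labels' extraction protocol also mentions ChIP, but the library it describes is an ATAC-seq library, and the files were read as such. Windows of 150 bp on both sides of every summit were merged over the 8 lists into 68800 regions. A region belonged to a locus when the protein-coding gene nearest to its midpoint, within 100 kb and at distance 0 inside the gene, was one of the 9 genes. This gave 91 regions of the 64638 that had a gene within that distance: 19 at Syk, 19 at Plcg2, 17 at Lyn, 12 at Lcp2, 9 at Inpp5d, 8 at Fgr, 3 at Tyrobp, 2 at Btk and 2 at Blnk. The farthest lay 63355 bp from its gene.

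All groups were AML246 cells grown with IL-3, and each was represented by 1 library. Day 0 was untreated. Total viable cells were taken after 4, 8 and 12 days of doxycycline (Dox, 0.1 µg/mL), which the titles call PU.1 restoration, and viable cells sorted for high CD11b were taken on day 12. Total viable cells that had been on Dox for 12 days were also taken 4, 8 and 12 days after it was removed, which the titles call PU.1 knockdown. The construct behind the PU.1 control, the strain of origin and whether the line is 1 clone were not given in the sources used here. A single library stood for each condition, which left no replicate error and no test, so every difference below describes these libraries.

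Immunoreceptors of myeloid cells, such as Fc receptors and C-type lectin receptors, have no enzyme of their own. They pair with small transmembrane adaptors, Tyrobp among them, whose tyrosine motifs (ITAMs) are phosphorylated by Src-family kinases such as Lyn and Fgr. The doubly phosphorylated motif recruits Syk, and Syk then phosphorylates the scaffolds Lcp2 and Blnk. On these scaffolds Btk activates the phospholipase Plcg2, which releases calcium signals, while the lipid phosphatase Inpp5d restrains the pathway. PU.1, encoded by Spi1, is an ETS-family transcription factor of myeloid and B cells, and several genes of this pathway are among those it is known to regulate.

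The lists held between 31957 summits (12 days off) and 51175 (4 days off), with median scores of 9.41 to 12.6. The score of a summit is a −log10 significance value of its peak (p or q), and it moves with read depth, which was not given in the sources used here. A region counted as called where at least 1 summit of the library fell in it, and a region not called was not thereby shown to be closed. PU.1 itself was not measured in these files. Of 7 regions assigned to Spi1, 3 were called on day 0, 4, 5 and 4 on days 4, 8 and 12, and 6, 5 and 4 after 4, 8 and 12 days off. As a check of the labelled cell type, 2 to 6 of 8 granulocyte precursor genes and 3 to 5 of 5 monocyte genes had a called region of their own within 1 kb, depending on the library, although Mpo and Elane had none in any. The B cell list had 1 or 2 of 5 genes, with Cd79a and Cd79b at none, the T cell list 1 or 2 of 5 with Cd4 and Cd8a at none, the erythroid list 2 or 3 of 4 with Gata1 at none, and the mast cell list 1 or 2 of 4 with Fcer1a and Ms4a2 at none. The stem and progenitor list had 2 or 3 of 3.

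The promoter sequences are shown for the starts that a region overlapped, because 3 of these 4 were called in every library and 1, at Syk, was called on Dox alone. RefSeq start sites (GRCm38.p6, the build also called mm10) were found for 7 of the 9 genes, with 8 windows of 250 bases before a start. Regions overlapped 4 of these windows. At Inpp5d (chr1:87620062-87620311, + strand) and Plcg2 (chr8:117498025-117498274, + strand) the overlapping region was called in all 8 libraries. At the first Syk start found (chr13:52583187-52583436, + strand) the region was called in all 8. At a second start, farther inside the gene (chr13:52596632-52596881, + strand), the region was called on day 8 and day 12 on Dox alone. The Syk span itself begins at 52582610, before both windows. The sequences run 5′ to 3′ and end at the base before the start. Capitals mark GAGGAAGT, a PU.1-type ETS site.
Inpp5d: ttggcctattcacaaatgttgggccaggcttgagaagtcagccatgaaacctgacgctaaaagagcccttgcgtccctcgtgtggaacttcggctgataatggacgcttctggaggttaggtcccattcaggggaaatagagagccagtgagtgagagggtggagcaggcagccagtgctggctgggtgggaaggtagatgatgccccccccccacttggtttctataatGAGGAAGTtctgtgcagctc
Plcg2: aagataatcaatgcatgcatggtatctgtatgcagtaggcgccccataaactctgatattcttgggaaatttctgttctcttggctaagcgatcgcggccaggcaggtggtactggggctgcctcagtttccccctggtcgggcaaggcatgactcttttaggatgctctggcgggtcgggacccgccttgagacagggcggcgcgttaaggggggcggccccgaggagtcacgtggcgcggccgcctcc
Syk, first start: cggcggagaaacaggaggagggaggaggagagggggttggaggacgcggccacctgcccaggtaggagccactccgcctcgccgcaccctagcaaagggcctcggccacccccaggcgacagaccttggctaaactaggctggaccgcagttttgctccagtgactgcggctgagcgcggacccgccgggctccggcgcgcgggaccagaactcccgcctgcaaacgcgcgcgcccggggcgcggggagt
Syk, second start: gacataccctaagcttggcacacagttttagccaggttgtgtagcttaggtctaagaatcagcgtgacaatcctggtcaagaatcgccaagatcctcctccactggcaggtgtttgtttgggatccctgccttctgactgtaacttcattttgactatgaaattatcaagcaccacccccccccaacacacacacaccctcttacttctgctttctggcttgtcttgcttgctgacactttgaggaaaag
Searched on both strands, GAGGAAGT was present in the Inpp5d window, at bases 231 to 238, and in none of the other 7 windows. It was present in 2.44% of all 32851 promoter windows of the table. CCGGAAGT (other ETS factors, sharing its last 6 letters with GAGGAAGT), an ETS-IRF composite motif, TTGCNNAA (C/EBP), TGTGGT (RUNX) and TGANTCA (AP-1) were in none of the 8 windows, against 2.88%, 0.167%, 9.56%, 14.0% and 6.75% of all windows. These matches describe letters in these windows and not binding. The windows of Fgr, Btk, Blnk and Lcp2 held no called region.

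Summits at the promoters differed in position between libraries. At Inpp5d they lay 48 bases after the start on day 0, 40 on day 4, 53 on day 8 and 5 after 4 days off, with scores of 9.14, 12.6, 24.1 and 23.1. CD11b-high cells had the summit at 48 bases, as on day 0. On day 12 and after 8 and 12 days off the first summit lay 315, 290 and 254 bases after the start. At Plcg2 the summit lay within 14 bases before the start on day 0, on day 12 and after 8 days off, and 282 to 372 bases after it on days 4 and 8 and after 4 and 12 days off. CD11b-high cells had both positions at Plcg2. At the first Syk start all 8 summits lay before that start but inside the gene span. The nearest lay 56 bases before it on day 0 and the farthest 338 bases before it after 8 days off. The second Syk start had summits 9 and 4 bases before it on days 8 and 12, scoring 7.43 and 7.41.

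The first comparison asked which regions of the pathway were called once PU.1 was restored. Regions that were not called on day 0 and called on days 4, 8 and 12 are termed gained, and regions called on day 0 and on none of those days are termed lost. At the 9 loci 11 of 91 regions were gained, 12.1% (exact Clopper-Pearson 95% interval 6.19 to 20.6), beside 4.86% of all regions with a gene. Lost regions numbered 3, or 3.30% (0.685 to 9.33), beside 5.49%. Syk held 4 gained regions, Lyn 2, and Fgr, Plcg2, Inpp5d, Lcp2 and Tyrobp 1 each, while Btk and Blnk held none. The lost regions lay at Lyn, Plcg2 and Lcp2. The intervals take in counting error alone, and regions of 1 locus are not independent of each other. The shares were not matched for position. Within 1 kb of a gene end lay 8.79% of the regions of these loci, 22.8% of all regions and 8.84% of all gained regions. The 9 genes were chosen with earlier results of these data known, which no interval takes in, so the excess is given as a description.

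These loci hold many regions, with a median of 9 per gene against 3 over all genes with a region, so the count per gene is read beside genes of like size. Among genes with at least 8 regions, 49.5% of 2080 held a gained region, and all 6 such genes of the pathway did. The median of gained minus lost was 1 over these 6 and 0 over the 2080, whose median number of regions was smaller (10.5 against 14.5). Over all 9 genes it was 1, and over all 16279 genes with a region, most of them with few regions, 0. Syk held 4 of the 11. Without its regions, a setting chosen after seeing the data, 7 of 72 were gained, or 9.72%. With scores of 10 or more the count was 5 of 52 regions (9.62%, beside 3.74% of all). Of these, the region at Lcp2 and 1 at Inpp5d belonged to the 11. The others, at Syk, Inpp5d and Tyrobp, were called in all 8 libraries. They counted as gained because their day-0 scores of 9.12, 9.14 and 8.91 fell below the cut. With non-coding genes admitted to the assignment the count was 6 of 65 (9.23%, beside 4.92%), because 5 gained regions lay nearer to a long non-coding RNA gene. No interval was computed at these settings, whose counts are smaller, so whether the excess there goes beyond counting error was not tested.

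On day 0 fewer of these regions were called than of all regions. The share was 36.3% (33 of 91, interval 26.4 to 47.0) beside 52.1%, and 37.5% without Syk. The share was 47.3% beside 51.0% on day 4, 69.2% beside 67.3% on day 8 and 47.3% beside 49.9% on day 12. CD11b-high cells had 46.2% beside 51.3%. After 4, 8 and 12 days off the shares were 70.3%, 59.3% and 40.7%, beside 73.3%, 59.6% and 46.0%. Day 0 was the library of the 8 whose share over all regions fell outside the interval of the 9 loci. Gained regions are by definition not called on day 0, so this low share in part restates the gained count. It is likewise a description, since the 9 genes were chosen with earlier results of these data known. The shares of both sets move with list length, the lists of day 8 and 4 days off being the longest.

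**Figure D1:**
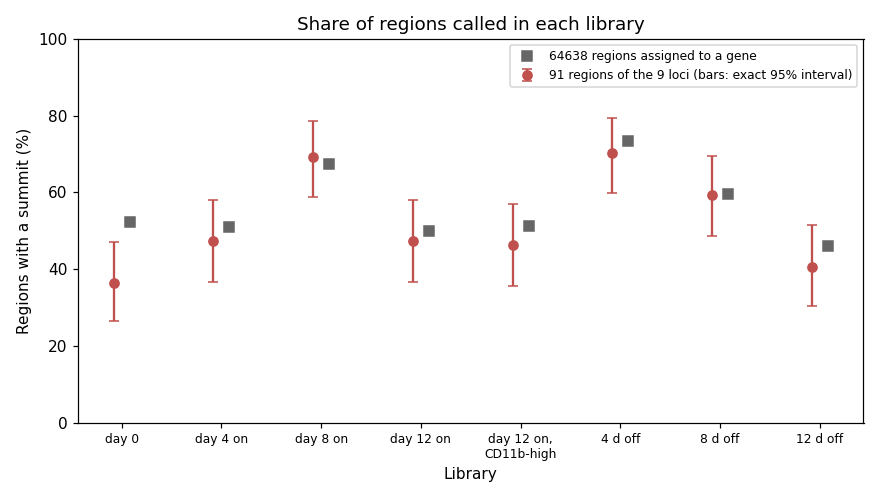
Share of regions with a summit (%, vertical axis) in each of the 8 libraries (horizontal axis), for the 91 regions of the 9 loci (circles, bars are exact 95% intervals of counting error) and the 64638 regions with a gene (squares). On day 0 the 9 loci stood at 36.3% and all regions at 52.1%, while in the other 7 libraries the square lay within the height of the bar.

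Calls were then followed from one time to the next. Between day 0 and day 4, 17 of 91 regions (18.7%) were newly called, beside 11.0% of all, and 7 (7.69%) were no longer called, beside 12.2%. Between day 4 and day 8, 25 regions (27.5%, beside 22.2%) were newly called. Between day 8 and day 12 a single region was newly called (1.10%, beside 4.69%), just inside the lower-coordinate end of Lyn, and 21 were no longer called (23.1%, beside 22.0%). Regions first called on day 8 and called on day 12 numbered 8 (8.79%, beside 5.08%). They lay at Syk (3 regions), Lyn (2), Lcp2 (2) and Inpp5d (1). Regions called on day 8 and in no other library numbered 5 (5.49%, beside 4.54%). Set directly against day 0, day 12 had 20 newly called regions (22.0%, beside 13.5%) and 10 no longer called (10.99%, beside 15.7%).

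Tyrobp (chr7:30413782-30417582) encodes the transmembrane ITAM adaptor that couples receptors such as Trem1 and Trem2 to Syk. It had 3 regions, all on 1 side of the gene. The region nearest to the gene, chr7:30412644-30413133, 894 bp outside it, was gained. It was not called on day 0, scored 9.61 on day 4, 9.92 on day 8, 12.1 on day 12 and 9.66 in CD11b-high cells, then 13.2 and 6.36 after 4 and 8 days off, and was not called after 12 days off. It was thus called on Dox and for 8 days after it, and the nearest summits on day 0 and after 12 days off were 1583 and 1353 bp away. A region 2483 bp from the gene, chr7:30411007-30411591, scored 3.05 on day 0 and was missed on day 4 alone, and the region 19162 bp away was called in all 8 libraries. By position the gained region also lay inside Gm32029, a long non-coding RNA gene.

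Lyn (chr4:3678068-3791612), a Src-family kinase that phosphorylates both activating and inhibitory receptor motifs, held 17 regions. The region at its lower-coordinate end, chr4:3677916-3678274, was called in every library with scores of 34.1 on day 0, 26.9, 27.5 and 23.4 on days 4, 8 and 12, 22.2 in CD11b-high cells and 50.5, 34.4 and 19.9 after 4, 8 and 12 days off. Both gained regions stayed called through 12 days off. The first, chr4:3649024-3649371, 28871 bp outside the gene, scored 6.57 on day 4, 30.1 on day 8, 24.2 on day 12, 19.6 in CD11b-high cells and 19.8, 9.88 and 6.69 after withdrawal. The second, chr4:3758887-3759323, inside the gene, scored 9.35, 24.8, 10.4 and 9.84 on Dox and 17.8, 17.0 and 5.96 off it. The nearest day-0 summits were 10609 and 51254 bp away, so no day-0 summit stood close to either. With scores of 10 or more, neither counted as gained, since both scored below 10 on day 4.

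Unlike the gained ones, 9 further regions of Lyn were called on Dox and not after 12 days off. Directly inside that end, chr4:3678378-3678702 was called in both day-12 libraries alone (10.9 in total and 12.7 in CD11b-high cells). Next to it, chr4:3678805-3679110 was called on day 4 (6.23), day 8 (12.8) and in CD11b-high cells (8.19), but not in total cells of day 12. Both of these regions were thus called in libraries taken on Dox and in no others. Deeper in the gene, chr4:3695359-3695743 scored 7.41, 3.0 and 7.40 on day 8, on day 12 and in CD11b-high cells and 17.0 after 4 days off. The region chr4:3771703-3772047 scored 6.15 and 7.07 on days 8 and 12 and 18.2 and 8.64 after 4 and 8 days off. Both were therefore still called after 4 days without Dox. Of the rest, chr4:3774857-3775235 and chr4:3780401-3780738 were called on day 8 (11.3 and 4.68) and after 4 and 8 days off, while chr4:3682893-3683193, chr4:3730429-3730729 and chr4:3783487-3783787 were called on day 8 alone (5.88, 9.62 and 4.84). The day-8 list was the longest of the restoration lists, and its part in these calls was not tested. The lost region of Lyn, chr4:3659680-3659980, scored 5.18 on day 0, and a region called in all 8 libraries, chr4:3660004-3660334, adjoined it, with a restoration summit 326 bp from the lost one.

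Fgr (chr4:132974095-133001893), a Src-family kinase of granulocytes and monocytes, had 8 regions and none within 1 kb of a gene end. Its gained region, chr4:132976835-132977233, lay inside the gene, 2939 bp from the end that holds the start. It scored 5.64 on day 4, 12.7 on day 8 and 7.99 on day 12, and was called neither in CD11b-high cells nor at any time off Dox. This was one of the 2 gained regions missing from CD11b-high cells, the other being at Syk. After 4 days off a summit lay 637 bp away, in a region called in that library alone. The region with the highest median score at Fgr, chr4:133005203-133005645, 3531 bp outside, scored 10.5 on day 0, 4.79 and 5.68 on days 4 and 8, was not called in total cells of day 12, scored 2.96 in CD11b-high cells and 13.1, 17.7 and 11.5 off Dox. A second region with this pattern, chr4:132982946-132983426, scored 6.70 on day 0 and was also missed on day 12 alone. Outside the gene, chr4:132951611-132951911 was called on day 4 alone (7.80) and chr4:132960834-132961478 on day 8 (2.42) and after 4 and 8 days off.

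Syk (chr13:52582610-52648792), the tyrosine kinase that gives the pathway its name, held 19 regions, 9 inside the gene and 10 outside. Its 4 gained regions made it 1 of 28 genes in the genome with 4 or more, which was known when the 9 genes were chosen and is given as a description. Of these, 3 lay on the side of the gene that holds its start, within 16185 bp, and 1 lay inside the gene. No Syk region was lost. The number of called regions was 6 on day 0, 10 on day 4, 14 on day 8, 13 on day 12, 9 in CD11b-high cells and 14, 12 and 10 after 4, 8 and 12 days off.

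The gained region chr13:52572487-52572808, 9963 bp outside Syk, had the highest score of the 4 on day 4, day 8 and day 12. It scored 19.3 on day 4, 22.1 on day 8, 8.71 on day 12 and 16.7 in CD11b-high cells, 4.72 after 4 days off, and was not called after 8 and 12 days. Its 5 summits lay within 21 bp of each other. The adjoining region chr13:52571964-52572340 was called on day 8 (14.1) and at all 3 times off (14.2, 6.11 and 3.29), so accessible chromatin was still called 447 and 490 bp away after 8 and 12 days off. On day 0 the nearest summit was 10723 bp away.

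Inside Syk, chr13:52610281-52610880 scored 9.35, 12.2 and 8.10 on days 4, 8 and 12 and 4.56 in CD11b-high cells, and was not called at any time off Dox. The nearest summit after 12 days off was 13598 bp away. Close to the start, chr13:52580861-52581234, 1563 bp outside, scored 3.35, 7.55 and 4.13 on days 4, 8 and 12 and was called in no other library. Of the 4 gained regions of Syk, these were the 2 called in libraries on Dox and in no others. The last gained region, chr13:52566132-52566719, 16185 bp outside, scored 3.56, 14.0 and 3.98 on days 4, 8 and 12, 5.71 in CD11b-high cells and 14.3, 4.21 and 3.08 off Dox, so it remained called. Its neighbour chr13:52566745-52567190 was first called on day 8 and also remained. The Syk count depended on the score, with 2 regions gained when scores of 5 or more were required and 1 when 10 or more were. That 1 was not among the 4. It was chr13:52636160-52636498, called on day 0 with a score of 9.12, below the cut. The Syk count was 2 with equal list lengths and 2 when non-coding genes were admitted, since a pair of the outside regions lay nearer to Gm2848, a long non-coding RNA gene.

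The other Syk regions were of several kinds. The region with the highest median score, chr13:52636160-52636498, inside the gene, was called in all 8 libraries, at 9.12 on day 0, 28.6, 31.0 and 13.9 on days 4, 8 and 12, 19.3 in CD11b-high cells and 32.2, 25.2 and 10.0 off Dox. Its percentile within the list was 40.8 on day 0 and 73.0, 82.9 and 65.8 on days 4, 8 and 12. A region near the middle of the gene, chr13:52614826-52615457, was called on day 8 (6.91), day 12 (4.95), in CD11b-high cells (8.87) and after 4 days off (5.78). By contrast chr13:52619446-52619788 was called on day 4 (3.96) and after 4 days off (2.42) alone. Beyond the far end, chr13:52690374-52691060, 41925 bp away, scored 14.8 on day 0, was missed on day 4, scored 14.35 on day 8, 7.41 on day 12 and 3.25 in CD11b-high cells, and 31.7, 26.6 and 12.7 off Dox. The region chr13:52560766-52561246, 21604 bp outside on the start side, was called at the 3 times off alone, at 7.23, 8.08 and 4.14.

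**Figure D2:**
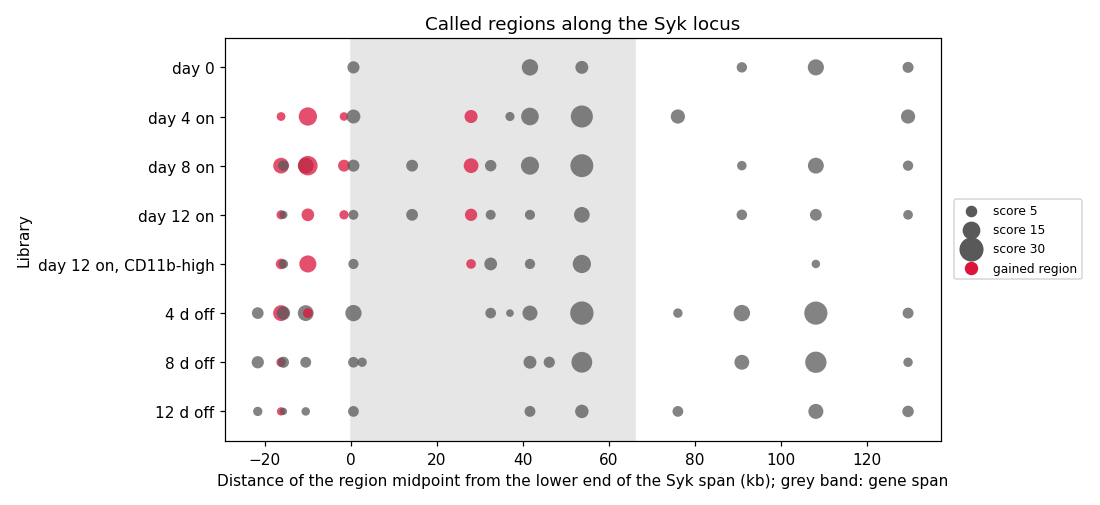
Called regions along the Syk locus, with the distance of each region's midpoint from the lower end of the gene span in kb (horizontal axis) and 1 row per library. Dot area grows with the summit score, red dots are the 4 gained regions and the grey band is the gene. No red dot stands in the day-0 row, and 1 of the 4 remains in the row of 12 days off.

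Lcp2 (chr11:34046928-34092281), a scaffold of myeloid cells, platelets and T cells, had 12 regions. The gained region chr11:34031365-34031770, 15361 bp outside the start side, scored 17.4 on day 4, 24.6 on day 8, 14.2 on day 12 and 12.0 in CD11b-high cells, then 5.61 and 4.91 after 4 and 8 days off, and was not called after 12 days. It lay 2755 bp from the nearest day-0 summit, which belonged to chr11:34034199-34034581. That neighbour scored 4.62 on day 0, was missed on day 4, and scored 15.1, 9.36, 10.3, 42.5 and 13.7 in the following 5 libraries before it too was not called after 12 days off. Both regions lay inside the long non-coding RNA gene 4930469K13Rik. The region that begins just after the start of Lcp2 itself, chr11:34046935-34047737, was called on day 4 (3.80) and day 8 (6.55) alone.

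The strongest Lcp2 region by median score was chr11:34063792-34064409, inside the gene, called in all 8 libraries at 17.6 on day 0 and 14.0, 34.4, 18.5, 22.1, 48.0, 25.1 and 20.2 in the later ones. Also inside, chr11:34072374-34072758 was called on day 8 (15.03), day 12 (7.32), in CD11b-high cells (15.1) and after 4 days off (4.10). Of the remaining regions first called on Dox, chr11:34123168-34123521 was called on days 8 and 12 and after 4 days off (9.62, 5.08 and 7.23) and chr11:34025819-34026119 on day 4 alone (2.63). After 12 days off 2 of the 12 regions of Lcp2 were called, against 5 on day 0. The lost region chr11:34098481-34098781, 6350 bp outside the gene, was called on day 0 alone, at 5.17.

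Blnk (chr19:40928927-40994221) encodes the related scaffold of B cells and macrophages, and Btk (chrX:134542334-134583628) the Tec-family kinase that acts on Plcg2. Each had 2 regions, all inside the gene, and neither had a called region within 1 kb of a gene end. At Blnk, chr19:40962938-40963336 was called in all 8 libraries, at 4.62 on day 0, 7.5, 10.99 and 4.06 on days 4, 8 and 12, 8.12 in CD11b-high cells and 10.1, 7.85 and 5.52 off Dox. The other Blnk region, chr19:40936133-40936433, was called after 4 days off alone (9.39). Btk had no called region in any library on Dox or on day 0. Its regions were chrX:134563617-134563917, called after 4 days off (10.5), and chrX:134550890-134551190, called after 12 days off (4.14), each in that single library.

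Plcg2 (chr8:117498275-117635142), the phospholipase at the end of the kinase chain, had 6 of its 19 regions called in all 8 libraries. Its strongest region by median score, chr8:117481860-117482193, 16249 bp before the start, scored 15.1 on day 0, 27.5, 30.9 and 17.9 on days 4, 8 and 12, 26.5 in CD11b-high cells and 49.8, 37.4 and 15.1 off Dox. The promoter region shown above scored 13.7 on day 0 and between 10.8 and 32.6 in the other libraries. The gained region, chr8:117626238-117626602, near the far end inside the gene, scored 8.45, 9.62 and 5.52 on days 4, 8 and 12, 6.36 in CD11b-high cells and 15.2 and 6.11 after 4 and 8 days off, and was not called after 12 days. Its nearest day-0 summit was 19725 bp away. The lost region chr8:117544921-117545325 scored 7.72 on day 0 and was called again after 8 days off (5.38), with a later summit 1069 bp from it. Other regions first called on Dox were chr8:117543801-117544152 and chr8:117548054-117548369, called on day 8 (6.67 and 5.25) and after 4 and 8 days off, and chr8:117537324-117537624 and chr8:117543002-117543302, called on day 8 alone (7.6 and 10.9).

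Inpp5d (chr1:87620312-87720510), the lipid phosphatase that acts as a brake, held 9 regions, 3 of them called in all 8 libraries. The region chr1:87637487-87637874 had the highest median score of all 91, at 49.2 on day 0, 58.7, 45.1 and 26.0 on days 4, 8 and 12, 28.7 in CD11b-high cells and 66.2, 50.8 and 47.0 off Dox. Its gained region, chr1:87659298-87659636, lay inside the gene and was called with 11.2, 27.2 and 13.6 on days 4, 8 and 12 and 6.48 in CD11b-high cells. It was not called at any time off Dox, when the nearest summit was 8516 bp or more away. Closer to the start, chr1:87640344-87640783 was first called on day 8 (9.12) and remained through 12 days off (8.05, 6.03, 27.1, 13.2 and 5.0). Beyond the far end, chr1:87723403-87723757 was called on day 8 (14.3) and after 4 days off (5.21). Syk, Fgr and Inpp5d thus each had a gained region inside the gene that was called on Dox alone.

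**Figure D3:**
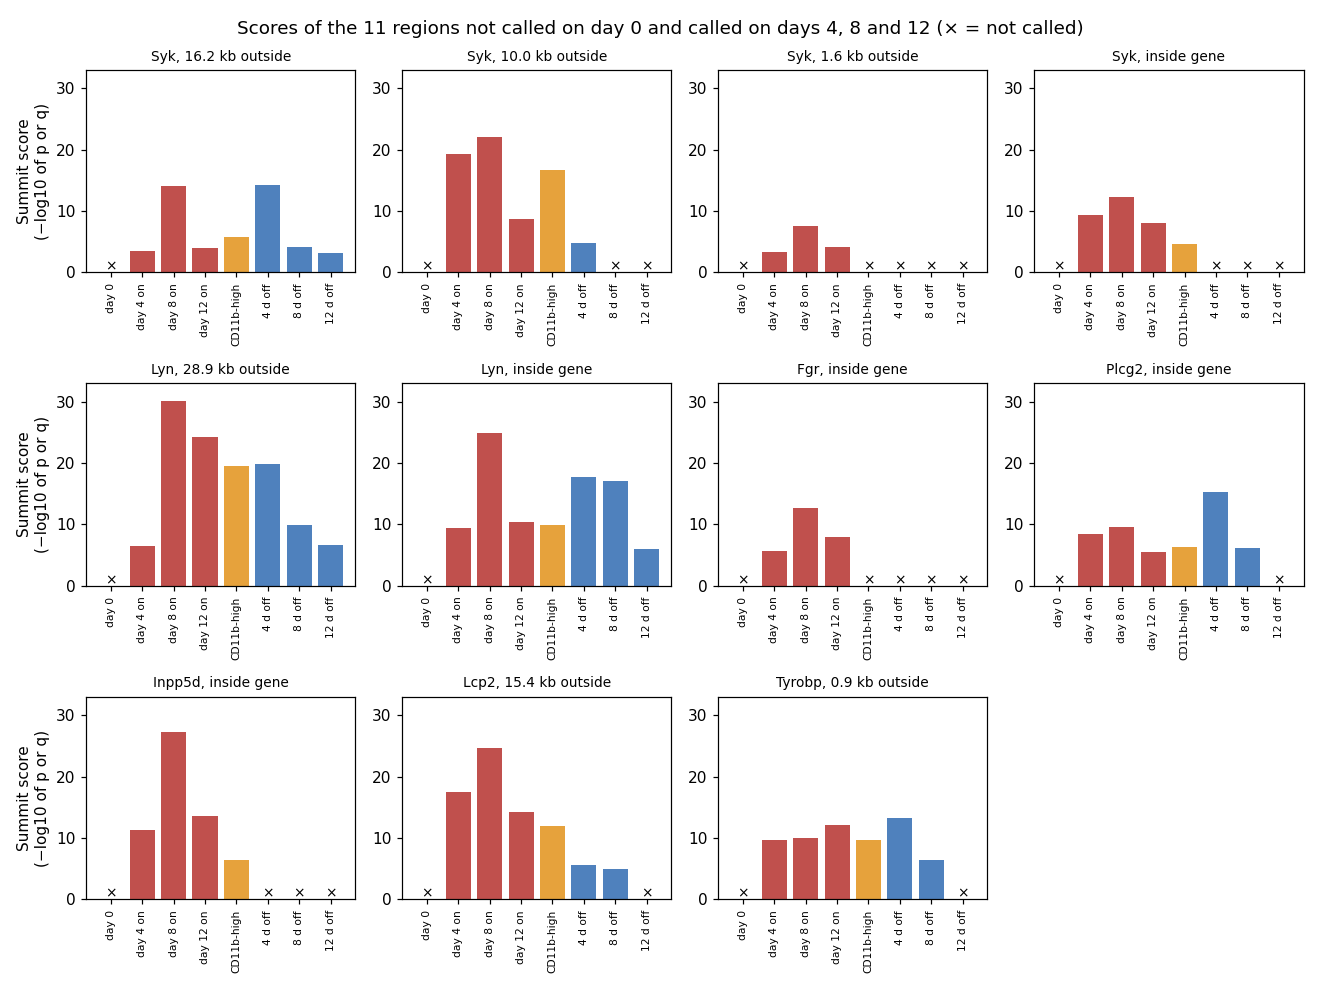
Summit scores (−log10 of p or q, vertical axes from 0 to a common maximum) of the 11 gained regions in each of the 8 libraries, with a cross where the region was not called. Red bars are total cells on Dox, orange CD11b-high cells of day 12 and blue the times off Dox. Scores of different libraries depend on depth, so bars show where a call was made and how it scored in that list, and 3 of the 11 panels keep a bar at 12 days off.

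The second comparison asked what became of the gained regions after Dox was withdrawn. Of the 11, 7 were called after 4 days off (63.6%, interval 30.8 to 89.1, beside 75.6% of all gained regions with a gene), 6 after 8 days (54.5%, beside 50%) and 3 after 12 days (27.3%, interval 6.02 to 60.97, beside 26.9%). The share of all gained regions lay inside the interval of the 9 loci at each time. By pattern, 4 were called at no time off (2 at Syk, and those of Fgr and Inpp5d), 1 at 4 days alone (Syk), 3 at 4 and 8 days (Plcg2, Lcp2 and Tyrobp) and 3 at all times (2 at Lyn and 1 at Syk). The share called at no time off was 36.4% (10.9 to 69.2), beside 20.9%. The gained regions had mid-list scores: their median percentile within a list was 38.7 on day 4, 57.3 on day 8 and 46.1 on day 12, whereas the 17 regions called in all 8 libraries stood at 61.4, 79.5 and 60.4. The gained regions had to be missed on day 0 and the 17 called in every list, so the contrast follows in part from the definitions. Percentiles of all gained regions were not set beside these.

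The cells 12 days off Dox were also set against day 0, both being PU.1-low by their labels. Regions called at 12 days off and not on day 0 numbered 12 of 91 (13.2%, interval 7.0 to 21.9), beside 7.02% of all regions, and those called on day 0 and not at 12 days off 8 (8.79%), beside 13.1%. Without Syk the first count was 7 of 72 (9.72%). Regions called after withdrawal and in no earlier library made up 19 of 91 (20.9%, beside 14.8%), and 8 of these were called at 4 days off alone (8.79%, beside 7.91%). Both regions of Btk and 1 of Blnk were among the 19. Along the withdrawal, 27 regions (29.7%, beside 30%) were called after 4 days off and not on day 12, and 6 (6.59%, beside 6.64%) the reverse. From 4 to 8 days off 7 were newly called (7.69%, beside 6.65%) and 17 no longer called (18.7%, beside 20.4%), and from 8 to 12 days 4 were newly called (4.40%, beside 4.70%) and 21 no longer called (23.1%, beside 18.3%). Each of the shares from one time to the next along the withdrawal was close to that of all regions except the last. The interval of that last share, 14.9 to 33.1, also held the share of all regions.

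**Figure D4:**
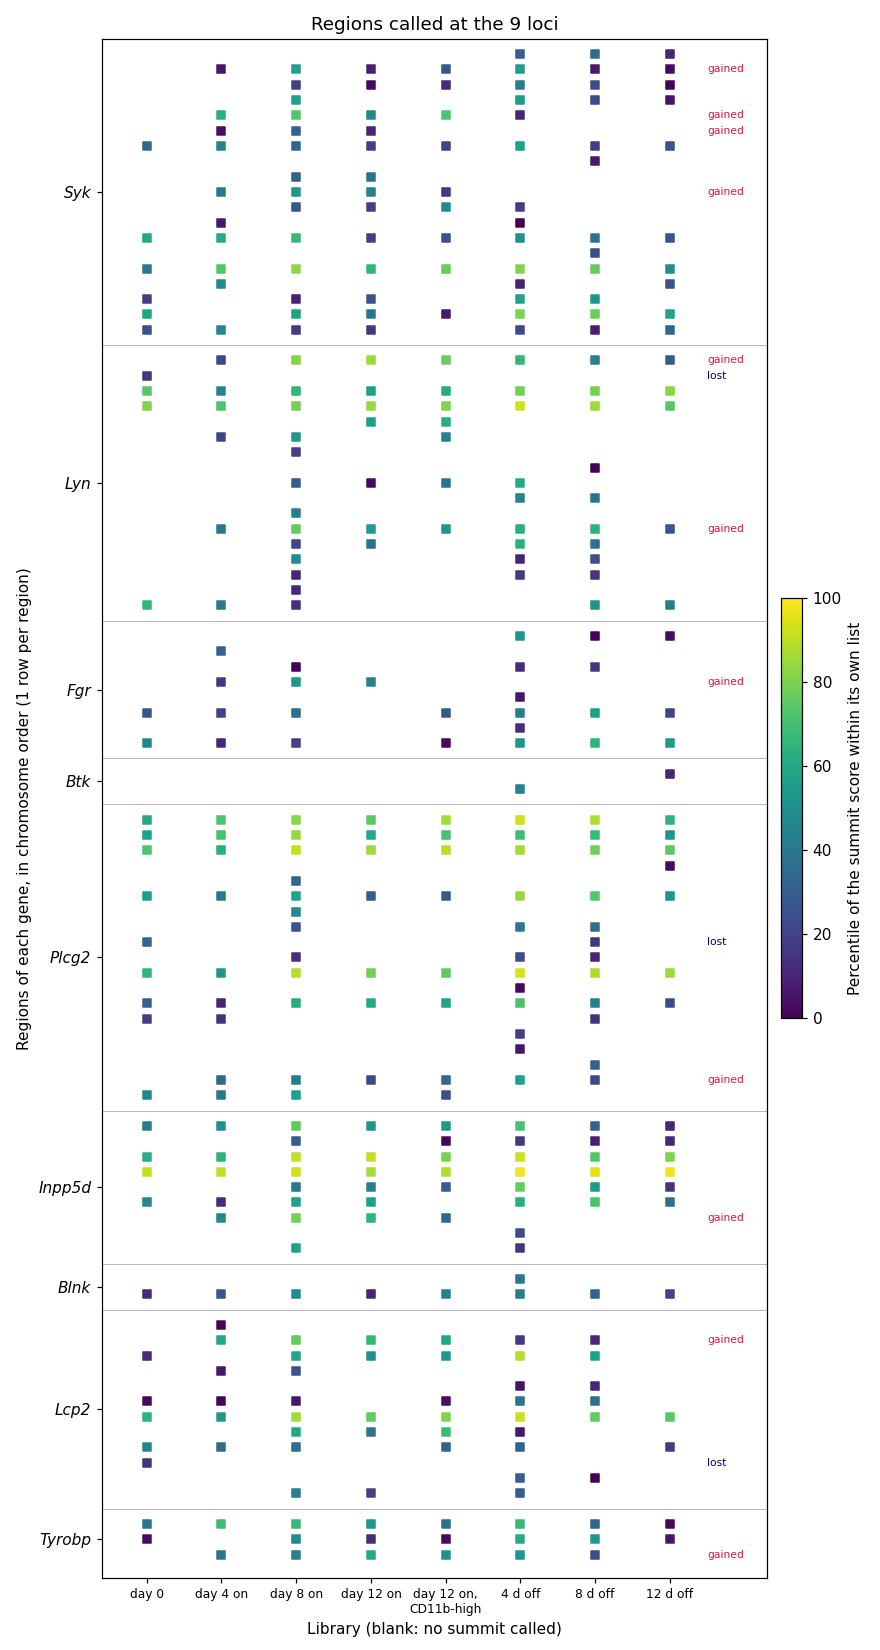
All 91 regions (rows, in chromosome order within each gene) against the 8 libraries (columns), where a square marks a call and its colour the percentile of the summit score within that library's own list. The 11 gained and 3 lost regions are marked at the right, and Btk has squares at 4 and 12 days off alone.

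The third comparison asked how the CD11b-high sort of day 12 differed from total cells of that day. Of the 91 regions, 35 were called in both libraries (38.5%, beside 40.8% of all), 7 in CD11b-high cells alone (7.69%, beside 10.5%) and 8 in total cells alone (8.79%, beside 9.15%). The share of all regions lay inside the interval of the 9 loci in each case. Of the regions called in just 1 of these libraries, the highest score was that of chr1:87650513-87651082 inside Inpp5d, at 11.1 in total cells and not called in CD11b-high cells. It was followed by the region near the lower end of Lyn at 8.19 in CD11b-high cells and the gained Fgr region at 7.99 in total cells. At Syk 4 regions were called in total cells alone and none in CD11b-high cells alone. Of the 11 gained regions 9 were called in CD11b-high cells (81.8%, beside 83.7%).

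Regions of the 9 loci lay inside genes in 61 of 91 cases (67.0%, beside 58.7%) and within 1 kb of a gene end in 8 (8.79%, interval 3.87 to 16.6, beside 22.8%). Of the 11 gained regions 5 lay inside the gene (45.5%, beside 59.1% of all gained regions) and 6 outside, and that of Tyrobp was the 1 within 1 kb of an end (9.09%, beside 8.84%). Regions called in all 8 libraries numbered 17 of 91 (18.7%, interval 11.3 to 28.2, beside 27.9%), and the interval held the share of all regions. At 7 of the 9 loci at least 1 region was called in all 8, and at 4 of them, Syk, Lyn, Plcg2 and Inpp5d, such a region lay within 1 kb of a gene end.

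The rest of the pathway was read from a list of 63 further genes, all matched, that held 512 regions. This list too was chosen with earlier results of these data known, so its shares are a description. Of these regions 46 were gained (8.98%, beside 4.86%) and 23 lost (4.49%, beside 5.49%). Gained exceeded lost regions at 22 genes and lost exceeded gained at 8, and the median of gained minus lost was 0, as over all genes. With scores of 10 or more, 19 of 270 regions were gained (7.04%, beside 3.74% of all) and 8 lost (2.96%, beside 5.01%). At this cut a region with a day-0 summit scoring below 10 could also count as gained. With day 8 left out, a setting chosen after seeing the data, 38 of the 512 were lost (7.42%), and the share of all regions was also higher, at 8.79%. By role, receptors and their ITAM adaptors had 9 gained and 1 lost of 48 regions (18.8% and 2.08%), with 2 gained and 1 lost at Fcgr1, the high-affinity IgG receptor, and 2 gained at Clec4n, which encodes the fungal receptor Dectin-2. Tyrosine kinases other than the members had 1 gained and 7 lost of 76 (1.32% and 9.21%), with 3 lost at the Src-family kinase Fyn.

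Downstream of the kinases, adaptors had 7 gained and 3 lost of 91 regions (7.69% and 3.30%, beside 4.86% and 5.49% of all regions), with 2 gained each at Grb2 and at Pik3ap1, which links receptors to PI3-kinase, and 2 lost at Skap2. Exchange factors and effectors had 18 gained and 5 lost of 204 (8.82% and 2.45%), led by the calcium channel gene Itpr1 with 5 gained, the second calcium channel gene Itpr2 with 3 gained and 3 lost, and the calcium-responsive factor Nfatc1 with 3 gained and 1 lost. The PI3-kinase subunit genes Pik3cg and Pik3r1 had 2 gained each and none lost. The group of phosphatases and brakes had 11 gained and 7 lost of 93 (11.8% and 7.53%), both above the shares of all regions. There were 4 gained and 1 lost at Ptprc, which encodes CD45, 3 gained at the phosphatase gene Ptpn11 and 2 lost at the ubiquitin ligase gene Cbl. Not every phosphatase of the group is a brake, so these are not counts for inhibitors of the pathway. The differences between roles were not tested.

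**Figure D5:**
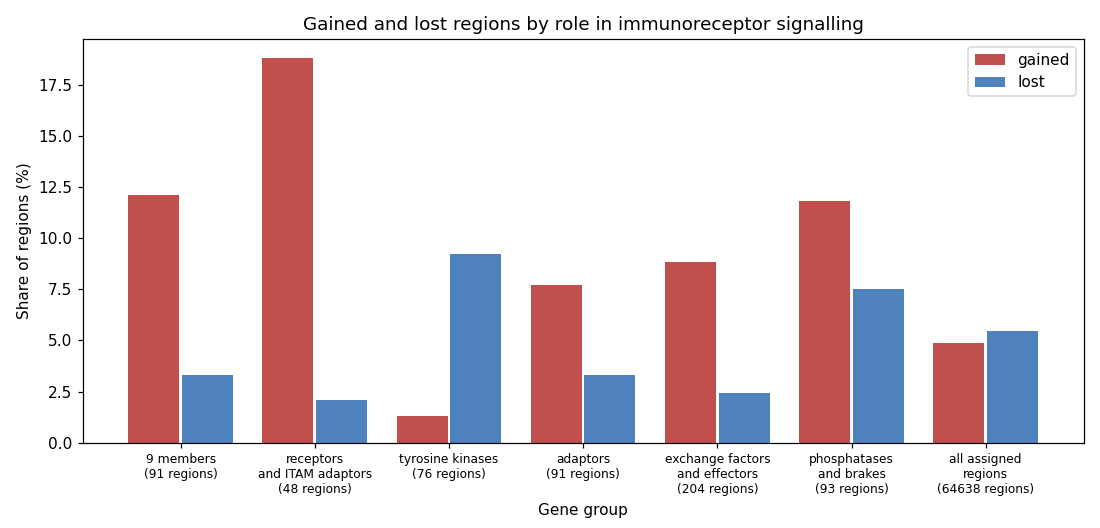
Share of regions gained (red) and lost (blue), in % from 0, for the 9 loci, for the 5 role groups of the further pathway genes and for all regions with a gene, with the number of regions under each group. The receptor group stands at 18.8% gained and the group of further tyrosine kinases at 1.32%.

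Genes whose regions followed the libraries most like those of Syk were sought among genes with at least 5 regions, by the mean absolute difference over the 8 libraries in the share of regions called. Sik1, a salt-inducible kinase gene, differed by 5.09 percentage points on average and held 3 gained regions of 15. Fnip1 (5.15), Lrrc8c (5.18), Ube2o (5.34) and D430019H16Rik (5.70) followed, with 1, 1, 0 and 1 gained regions. The likeness rests on shares over 6 to 15 regions per gene and on the same 8 lists.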

How the data were processed

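The 8 ATAC-seq libraries, 1 per group, were used as deposited. The submitters' processing notes name Picard 2.14.0, MACS2 (with no version) and the build mm10. Aligner and depth were not given in the sources used here. Each deposited list gives 1 base per summit and a score, taken here to be a −log10 significance value since the smallest deposited scores were 1.30 to 1.39. Whether the authors wrote p or q was not given in the sources used here.

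From each list 85 to 121 summits on contigs other than chromosomes 1 to 19, X and Y were left out. The others were extended by 150 bp, merged, and assigned by midpoint to the nearest of 21887 protein-coding genes (RefSeq, GRCm38.p6) with pandas 2.3.3 under Python 3.11.15. No region of the 9 loci lay inside more than 1 gene span. Merging, assignment and state calls were checked on simulated summits. Shares carry exact Clopper-Pearson 95% intervals (scipy 1.17.1).

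The 9 genes and the pathway list were chosen with earlier results of these data known. Regions given in full were the gained and lost ones, the region with the highest median score per gene, regions first called on Dox and not called at 12 days off, and the 3 highest scoring of the regions called in 1 of the day-12 libraries alone. Pathway genes with 2 or more gained or lost regions are named, except 1 that is not reported here, as are the 5 genes most like Syk. Neither strand nor exons are in the gene table, and sequences at regions away from promoters were not analysed here.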

Additional observations from a re-analysis of the deposited data

How the results depend on the processing

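No paired analysis was possible because each group held 1 library. The count of 11 gained regions stayed within 1.5 times under 7 of 10 alternatives. Some of these could not lower it. A gene limit of 50 kb removed none, since the farthest gained region lay 28871 bp from its gene. Excluding regions with a day-0 summit within 1 kb removed none, since the nearest was 1583 bp away. Leaving out day 8 only relaxed the rule. The count was 6 when non-coding genes were admitted, 5 at a score of at least 10 and 7 without the regions of Syk. At those settings the share of these loci was above that of all regions, but no interval was computed there and counting error was not taken in. At a score of at least 10 the share also rested on regions at Syk, Inpp5d and Tyrobp that were called on day 0 below the cut. That setting therefore cannot show whether the excess of the reported regions remained. Gained regions called after 12 days off (3) numbered 1 with non-coding genes and 0 at a score of at least 10. Lost regions (3) numbered 1 with non-coding genes and 5 with summits extended by 100 bp. At a score of at least 10 there were also 9 regions called in all 8 libraries, 3 called in CD11b-high cells alone, 5 in total cells alone, and 19 gained and 8 lost regions in the pathway list. Total-only regions numbered 4 without Syk, and the pathway list held 38 lost regions (7.42%) when the day-8 list was left out, where the share of all regions went from 5.49% to 8.79%. These 2 settings, without Syk and without the day-8 list, were chosen after seeing the data. A stricter score leaves fewer regions to call, and otherwise the cause was not tested. For single genes, 69 of 81 gained counts stayed within 1.5 times, but every gene except Syk and Lyn had a count of 0 or 1. A count that stayed did not have to be the same region, as with Tyrobp at a score of at least 10. The count of Syk, 4 as reported, stayed within 1.5 times under 5 of 9 settings and fell to 1 at the lowest, a region outside the 4. Read depth was not given in the sources used here, so which regions were missed for lack of depth could not be told.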

Other observations

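Next to Tyrobp, 130 bp away, lies Hcst, which encodes a signalling adaptor that recruits PI3-kinase instead of Syk. Its region chr7:30419415-30420018 was called in all 8 libraries, at 6.34 on day 0, 8.12, 19.9 and 8.67 on days 4, 8 and 12, 9.38 in CD11b-high cells and 20.1, 6.54 and 4.89 after 4, 8 and 12 days off. A second Hcst region, chr7:30420168-30420565, 512 bp from the gene, was called on day 8 (5.29) and in CD11b-high cells (5.52) alone. Farther on, Nfkbid, an inhibitor of the NF-kappa-B family, had chr7:30422093-30422536 called in every library except total cells of day 12, at 12.9 on day 0. Neither neighbour held a gained region, and the 894 bp between the Tyrobp region and its gene lie on the side away from Hcst.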
